A study of Mus musculus with 6 samples.

Results

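The genes described here are the 20 cytosolic aminoacyl-tRNA synthetase genes and 23 genes of the amino acid response. This list of 43 genes was chosen by name from what the genes do, with earlier results of these data known. All 43 were among the 24149 genes with a value in all 6 libraries, and 40 of them had an average FPKM, the Cufflinks unit of fragments scaled by transcript length and library size, of at least 1 and were tested, out of 10210 tested genes. The RNA came from T-follicular helper (Tfh) cells, the CD4+ T cells that help B cells in germinal centers. They were sorted from spleen as GFP-negative CD3+CD4+CXCR5+PD-1+ cells on day 7 after intraperitoneal immunization with 100 µg of NP-CGG, a hapten on chicken gamma globulin, in complete Freund's adjuvant (CFA). The Bob1KO group was 3 libraries from FoxP3GFP/DTRCD4Cre/+Bob1fl/fl mice, in which Cre under the Cd4 promoter removes the whole of Pou2af1, the gene of the transcriptional coactivator Bob1. The wild-type (WT) group was 3 libraries from FoxP3GFP/DTRCD4+/+Bob1fl/fl mice, which carry the floxed alleles without Cre. Mice of both groups carry the FoxP3 reporter. Each library stands for an experiment with 10 to 12 mice, so it measures a pool. A difference in bulk RNA cannot separate fewer cells of a kind from less RNA per cell.

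Aminoacyl-tRNA synthetases join each amino acid to its tRNA and thereby supply the ribosome. When amino acids run short, uncharged tRNA activates the kinase GCN2, which phosphorylates the initiation factor eIF2; general translation falls while the mRNA of the transcription factor ATF4 is translated more. ATF4, paired with C/EBP proteins, then turns on synthetases, amino acid transporters, and the enzymes that make asparagine, serine and one-carbon units. Activated T cells draw heavily on imported amino acids and on serine-derived one-carbon units for growth, and many of these genes are induced on T-cell activation. As ATF4 itself is controlled mainly by translation, its mRNA level is only a partial reading of the pathway.

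ATF4 is known to bind its target genes at the C/EBP-ATF response element. The core of this element, searched here as TGATGNAA on both strands, was looked for in the RefSeq promoter windows of GRCm38.p6, from 250 bases before to 50 bases after each annotated start. A promoter entry was matched for 33 of the 43 genes. The core was present in 10 of these 33, or 30.3%, against 1219 of 27025 genes with an entry, or 4.51%. The 33 include genes that were not tested. Among the listed genes that were tested, 7 held the core and 23 with an entry did not. Of all tested genes with an entry, 222 of 8258, or 2.69%, held the core. Among the role groups it was found in 5 of 13 synthetases, 3 of 7 ATF4 partners and stress regulators, 1 of 4 serine and asparagine genes, 0 of 5 folate enzymes and 1 of 4 transporters. A match is a description of the letters and not of binding. The 10 matches of 9 of these genes are printed in 30-base windows because they are a sequence feature that part of the list shares. Part of the list was chosen as genes of the amino acid response, so the share with a core is not independent of that choice. The core is in capitals, and each window is written 5′ to 3′ on the strand on which the core reads.
Gars, chr6:55037960-55037989, minus strand: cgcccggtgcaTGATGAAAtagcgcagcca
Iars, chr13:49682126-49682155, minus strand: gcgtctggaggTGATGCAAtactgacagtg
Tars, chr15:11399655-11399684, plus strand: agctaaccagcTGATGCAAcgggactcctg
Yars, chr4:129189895-129189924, plus strand: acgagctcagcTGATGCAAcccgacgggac
Asns, chr6:7693214-7693243, minus strand: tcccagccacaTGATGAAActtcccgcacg
Chac1, chr2:119351038-119351067, minus strand: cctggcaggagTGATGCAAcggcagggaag
Nupr1, chr7:126625562-126625591, plus strand: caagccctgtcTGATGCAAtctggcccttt
Trib3, chr2:152344028-152344057, plus strand: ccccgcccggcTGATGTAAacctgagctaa
Slc7a11, upstream site, chr3:50443661-50443690, minus strand: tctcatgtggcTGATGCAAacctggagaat
Slc7a11, downstream site, chr3:50443642-50443671, plus strand: gggctgcatgaTGATGCAAattctccaggt
Of the 10 cores, 7 read TGATGCAA, 2 read TGATGAAA and 1 reads TGATGTAA. Slc7a11 has a pair that begin 66 and 47 bases before the start and lie on opposite strands. The other cores lie from 193 bases before the start, in Chac1, to 15 bases after it, in Trib3.

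The whole 250 bases before the start are given for Asns, the textbook amino acid response gene. Capitals mark the core.
Asns promoter, chr6:7693210-7693459, minus strand: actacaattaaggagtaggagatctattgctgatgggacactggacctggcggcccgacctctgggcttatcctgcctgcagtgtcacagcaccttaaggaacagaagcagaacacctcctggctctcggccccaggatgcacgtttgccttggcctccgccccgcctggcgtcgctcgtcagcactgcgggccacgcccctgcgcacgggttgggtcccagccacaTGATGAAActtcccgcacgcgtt
In the Asns promoter the core lies 23 bases before the start.

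**Figure D1:**
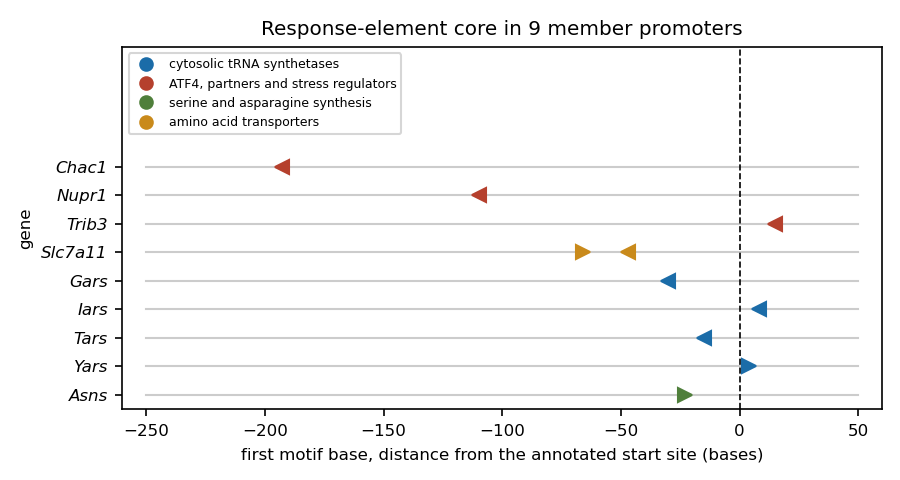
Position of the response-element core in the promoters of 9 genes, as the distance in bases of the first core base from the annotated start (dashed line); triangles point right where the core reads on the gene strand and left where it reads on the opposite strand, and grey lines are the window searched. Of the 10 cores, those of Asns, Tars and Gars lie within 30 bases before the start, and that of Chac1 lies farthest from it, at 193 bases before.

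The libraries were first checked against their labels. Pou2af1 had an FPKM of 1.16, 0.24 and 0.32 in Bob1KO Tfh cells, against 46.1, 32.5 and 34.4 in WT Tfh cells, a log2 fold change of -4.65 ± 0.26 (SE, n = 3 each; limma, adjusted P = 0.00354). The summed FPKM of 10 Tfh genes lay between 2352 and 3144 in Bob1KO and between 2212 and 3216 in WT libraries. Cd3e led this sum, with 642 to 929 in Bob1KO and 751 to 851 in WT libraries. Bcl6 had 38.1 to 63.6 in Bob1KO and 37.8 to 73.9 in WT libraries, and Cxcr5 and Pdcd1 are also in the list. Foxp3 was listed at 0 in all 6 libraries. Regulatory T-cell markers, led by Tnfrsf18, nonetheless summed to 252 to 289 in Bob1KO and 216 to 291 in WT libraries. B-cell markers summed to at most 8.22 in Bob1KO and 6.89 in WT libraries. Plasma-cell markers, led by Xbp1, summed to 101 to 132 in Bob1KO and 82.3 to 109 in WT libraries. Of these, Igj had 16.8, 1.86 and 4.18 in Bob1KO and 5.55, 1.93 and 2.52 in WT libraries. Myeloid markers, led by S100a8, summed to 3631, 70.9 and 1033 in Bob1KO and 517, 451 and 766 in WT libraries, and NK and CD8 T-cell markers, led by Ccl5, to 107 to 222 in Bob1KO and 242 to 377 in WT libraries. Ccl5 alone had 59.6, 85.6 and 22.9 in Bob1KO and 275, 159 and 99.9 in WT libraries. Nkg7, the next most abundant of these markers, overlapped, with 96.2, 119 and 68.3 in Bob1KO and 83.6, 107 and 125 in WT libraries. Prf1, at low levels, was also apart, with 0.91, 1.84 and 1.16 in Bob1KO and 2.78, 2.56 and 3.06 in WT libraries. Both libraries numbered 2 stood apart in Y-linked RNA, with a summed FPKM of 97.0 in Bob1KO 2 and 87.4 in WT 2 and at most 0.026 in the other libraries. The deposited bounds of each FPKM correspond to between 10200000 and 13700000 effective fragments a library.

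None of the 40 tested genes passed the test between Bob1KO and WT Tfh cells. In limma with Benjamini-Hochberg adjustment over all 10210 genes, 0 of the 40 passed an adjusted P of 0.05, a threshold that 0.0196% of all genes passed, and the adjusted P of the 40 lay between 0.933 and 0.998. At an unadjusted P of 0.05, 0 of the 40 passed, against 5.35% of all genes; the lowest unadjusted P was 0.0740, for Psph. All 3 Bob1KO libraries were above all 3 WT libraries for 0 of the 40, against 5.86% of all genes. All 3 were below for 1 of the 40, or 2.5%, against 4.85% of all genes, and that gene was Sesn2. The log2 fold change was positive for 16 genes and negative for 24, with a median of -0.04, against a median of -0.00 over all tested genes, of which 49.5% were positive. A missed threshold does not show that the levels are equal, and the 95% interval of each difference is therefore given for the genes on which the description turns.

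**Figure D2:**
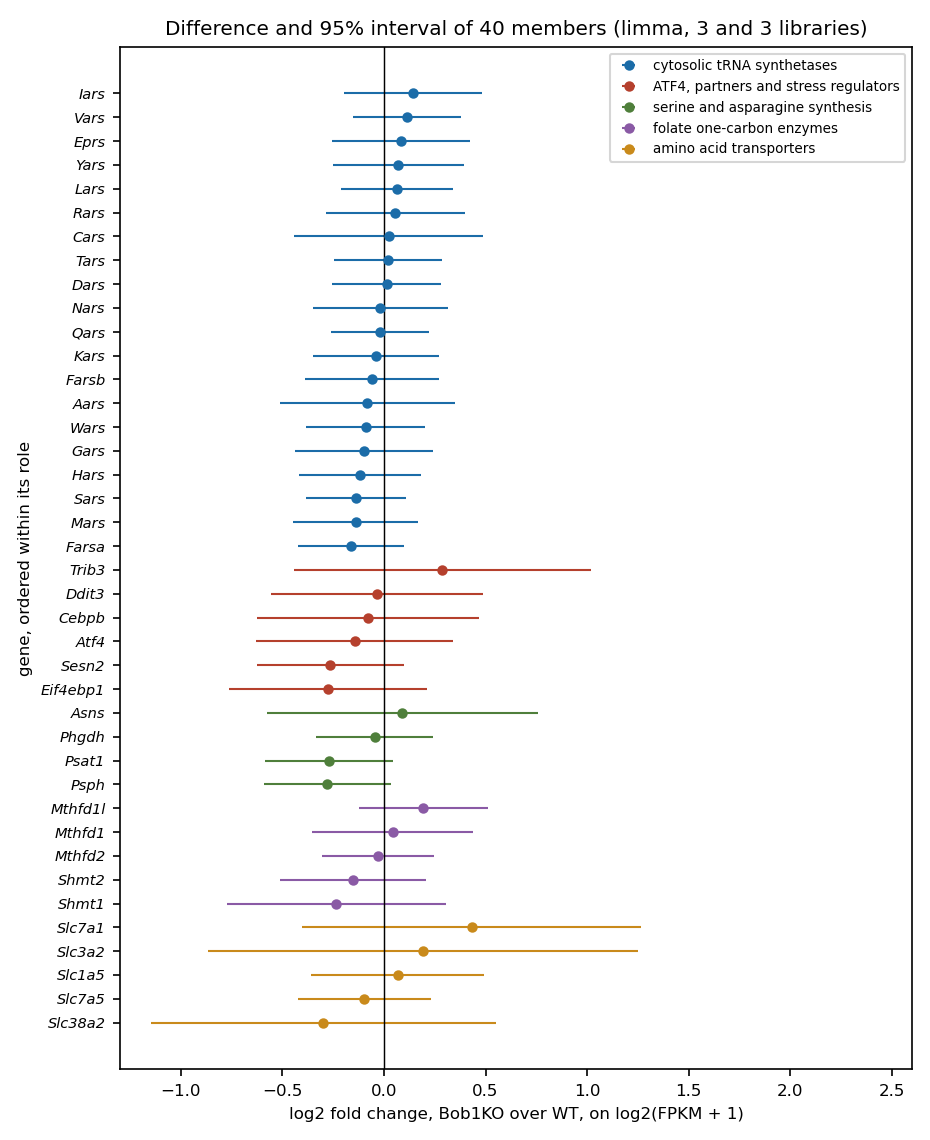
Log2 fold change of Bob1KO over WT Tfh cells, on log2(FPKM + 1), for the 40 tested genes; points are limma estimates from 3 and 3 libraries, bars are 95% intervals, and colors give the role. Every interval includes 0, the synthetase estimates lie between -0.16 and 0.14, and the widest intervals are those of Slc3a2, Slc7a1 and Slc38a2 among the transporters.

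The summed level of the 20 synthetases overlapped between the groups. Their summed FPKM was 793, 794 and 841 in Bob1KO Tfh cells, or 809 ± 27.6 (SD, n = 3), and 815, 784 and 888 in WT Tfh cells, or 829 ± 53.4 (SD, n = 3). The 20 fold changes were split into 9 positive and 11 negative, with a median of -0.02 on the log2 scale and a median standard error of 0.13. No interval of a synthetase reached beyond -0.51 or 0.49. Across libraries, single synthetases varied by up to 1.63-fold from the lowest to the highest library, for Cars.

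Dars, which charges the aspartate tRNA, had the highest level of the synthetases, with an FPKM of 94.1, 83.1 and 88.9 in Bob1KO and 92.5, 78.5 and 93.4 in WT libraries. The groups overlapped and the log2 fold change was 0.01 ± 0.11 (SE), with an interval of -0.26 to 0.28. Vars, the valine enzyme and the next in level, had 75.6, 80.4 and 76.5 in Bob1KO and 69.0, 65.7 and 80.8 in WT libraries, with 1 WT library above all others (log2 fold change 0.11 ± 0.11). Iars, the isoleucine enzyme, had 13.9, 12.1 and 16.4 in Bob1KO and 11.9, 12.7 and 13.2 in WT libraries (0.14, interval -0.20 to 0.48), an estimate that was 0.035 without Bob1KO replicate 3 and lay between 0.035 and 0.24 with 1 library left out. Bob1KO 2 lay inside the WT range and the other 2 Bob1KO libraries above it. Farsa, which encodes the alpha subunit of the phenylalanine enzyme, had 41.3, 47.1 and 44.1 in Bob1KO and 50.7, 45.2 and 52.7 in WT libraries (-0.16, interval -0.42 to 0.10). Farsb, the beta subunit of the same enzyme, was at -0.06, and its level of 43.1 ± 2.72 in Bob1KO and 45.2 ± 7.04 in WT libraries (SD, n = 3 each) was close to the 44.1 ± 2.88 and 49.5 ± 3.88 of Farsa.

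Sars, the serine enzyme, had an FPKM of 66.1, 70.8 and 61.5 in Bob1KO and 70.9, 70.2 and 77.4 in WT libraries, with a single Bob1KO library inside the WT range (-0.14, interval -0.39 to 0.11). Aars, the alanine enzyme, had the largest SD within the Bob1KO group of the 20, 14.7, with 53.9, 72.5 and 82.9 in Bob1KO and 81.1, 76.1 and 62.6 in WT libraries (-0.08 ± 0.18). In the authors' table Aars shares a row with its neighbors Ddx19b and Exosc6, so its values are uncertain. Gars (glycine), Hars (histidine), Mars (methionine), Wars (tryptophan), Kars (lysine), Qars (glutamine) and Nars (asparagine) had estimates between -0.14 and -0.02. Cars (cysteine), Tars (threonine), Rars (arginine), Lars (leucine), Yars (tyrosine) and Eprs, which charges both glutamate and proline tRNAs, had estimates between 0.02 and 0.08. Qars was the steadiest of all 40 genes, with the highest library 1.11-fold above the lowest. Mars (chr10:127296221-127311786, GRCm38) and Ddit3 (chr10:127290793-127296291) overlap at their ends, where fragments can fall to either gene.

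Of the regulators, Atf4 had an FPKM of 48.3, 74.7 and 49.5 in Bob1KO Tfh cells and 73.0, 63.9 and 51.9 in WT Tfh cells. Both groups held high and low libraries, and the log2 fold change of -0.14 had an interval of -0.63 to 0.34. Ddit3, which encodes CHOP, a stress-induced partner of ATF4, had 47.7, 74.3 and 49.6 in Bob1KO and 45.5, 69.9 and 59.1 in WT libraries (-0.03, interval -0.55 to 0.49). The highest library of each group was the one numbered 2. Cebpb, a C/EBP protein that pairs with ATF4, was the most abundant of the regulators, with 135, 178 and 104 in Bob1KO and 183, 124 and 130 in WT libraries (-0.08, interval -0.63 to 0.47). Cebpb is also expressed by myeloid cells, and the part of the myeloid sums in its values was not tested.

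The stress effectors were present at lower levels. Sesn2, whose product binds leucine and restrains mTORC1, had an FPKM of 6.12, 5.87 and 4.75 in Bob1KO and 6.95, 6.30 and 7.39 in WT libraries. This was the gene whose groups did not overlap, with Bob1KO 1 just below WT 2. Its log2 fold change was -0.26 ± 0.15 (SE, unadjusted P = 0.130 in limma), with an interval of -0.63 to 0.10. Eif4ebp1, which encodes the translation repressor 4E-BP1, had 21.2, 13.1 and 13.2 in Bob1KO and 20.5, 16.4 and 20.3 in WT libraries (-0.28, interval -0.77 to 0.21). A single Bob1KO library, number 1, was the highest of the 6. Trib3, a pseudokinase that dampens ATF4 and AKT signaling, had 3.44, 2.48 and 3.02 in Bob1KO and 1.10, 2.51 and 3.65 in WT libraries (0.29, interval -0.44 to 1.02), with WT libraries at both ends of the range.

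Chac1, Nupr1 and Slc7a11 were barely detected. Chac1, a glutathione-degrading enzyme, had an FPKM of 0.55, 0 and 0.40 in Bob1KO and 0.10, 0.17 and 0.21 in WT libraries. Nupr1, a chromatin-associated stress protein, had 0.99, 0 and 0.73 in Bob1KO and 0.57, 0 and 0.32 in WT libraries. Slc7a11, the cystine-glutamate exchanger, had 0.065, 0 and 0.005 in Bob1KO and was listed at 0 in all 3 WT libraries. These 3 genes fell under the mean of 1 and were not tested. All 3 carry the response-element core in their promoters.

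**Figure D3:**
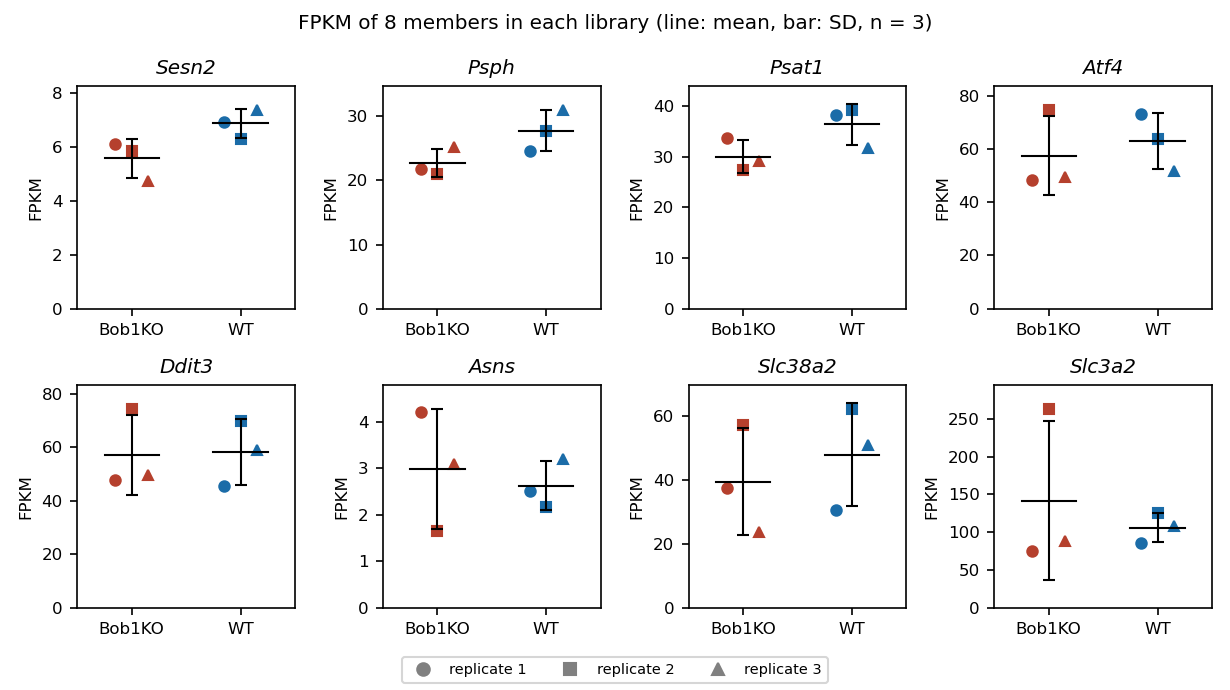
FPKM of 8 genes in each library, Bob1KO left and WT right; symbols give the replicate number, lines the mean and bars the SD (n = 3), and every axis starts at 0. The groups are apart for Sesn2 and overlap for the other 7, and Slc3a2 has a single Bob1KO library, number 2, at 263.

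The serine pathway makes serine from a glycolytic intermediate in a chain of enzymes, Phgdh, Psat1 and Psph. Phgdh, the entry step, had an FPKM of 67.4, 65.7 and 67.8 in Bob1KO and 59.9, 77.6 and 71.1 in WT libraries, with all Bob1KO values inside the WT range (-0.05, interval -0.33 to 0.24). Psat1, the aminotransferase of the middle step, had 33.6, 27.3 and 29.1 in Bob1KO and 38.3, 39.2 and 31.7 in WT libraries (-0.27 ± 0.13, unadjusted P = 0.084 and adjusted P = 0.937 in limma, interval -0.59 to 0.05). Psph, the last step, had 21.8, 21.0 and 25.1 in Bob1KO and 24.5, 27.7 and 31.0 in WT libraries (-0.28 ± 0.13, unadjusted P = 0.0740 and adjusted P = 0.933, interval -0.59 to 0.04). For both genes, 1 Bob1KO library overlapped 1 WT library, and these were the lowest P values of the list. Asns, asparagine synthetase, was low and variable, with 4.21, 1.65 and 3.09 in Bob1KO and 2.51, 2.17 and 3.197 in WT libraries (0.09, interval -0.58 to 0.76). Bob1KO libraries stood at both the top and the bottom of its range.

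The folate enzymes carry the one-carbon unit of serine to purines and thymidylate. Shmt2, the mitochondrial enzyme that splits serine, had an FPKM of 37.7, 36.5 and 42.9 in Bob1KO and 39.6, 38.6 and 53.3 in WT libraries (-0.15, interval -0.51 to 0.21). Shmt1, its cytosolic counterpart, was lower, with 6.65, 7.24 and 7.15 in Bob1KO and 5.90, 8.56 and 11.7 in WT libraries (-0.23, interval -0.77 to 0.30), and its WT values enclosed all Bob1KO values. Mthfd2, the mitochondrial dehydrogenase of proliferating cells and the highest of the group, had 51.2, 45.0 and 43.3 in Bob1KO and 44.1, 46.8 and 51.5 in WT libraries (-0.03, interval -0.31 to 0.25). Mthfd1l, which releases formate from mitochondria, had 11.5, 11.1 and 12.8 in Bob1KO and 11.3, 10.04 and 9.23 in WT libraries (0.19, interval -0.12 to 0.51). Mthfd1, the cytosolic trifunctional enzyme, averaged 18.3 ± 2.10 in Bob1KO and 17.9 ± 3.57 in WT libraries (SD, n = 3 each).

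Among the transporters, Slc1a5, which imports glutamine, had the highest level of the whole list. Its FPKM was 224, 301 and 234 in Bob1KO and 221, 208 and 297 in WT libraries, with 1 high library in each group (0.07, interval -0.36 to 0.49). Slc3a2, the heavy chain CD98 that carries several transporters to the surface, had 74.6, 263 and 88.2 in Bob1KO and 86.2, 125 and 108 in WT libraries. Bob1KO 2 stood far above the rest, and of the other 2 Bob1KO libraries 1 was below the lowest WT library and 1 just above it. The log2 fold change of 0.19 had an interval of -0.87 to 1.25, was -0.24 without both libraries numbered 2, and the authors' group FPKM from a common assembly were 88.2 for Bob1KO and 92.0 for WT. The light chain Slc7a5, which with CD98 imports large neutral amino acids such as leucine, was lower and steady, at 10.6, 9.09 and 8.51 in Bob1KO and 9.31, 10.9 and 10.02 in WT libraries (-0.10, interval -0.43 to 0.23). Slc7a1, the arginine and lysine importer, had 6.96, 6.54 and 3.37 in Bob1KO and 6.36, 3.32 and 2.37 in WT libraries (0.43, interval -0.40 to 1.27), an estimate that was 0.18 without WT replicate 3 and lay between 0.18 and 0.75 with 1 library left out. Slc38a2, a sodium-coupled importer of small neutral amino acids, had 37.6, 57.2 and 23.9 in Bob1KO and 30.6, 62.3 and 51.1 in WT libraries (-0.30, interval -1.15 to 0.55).

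The order of levels ran from Slc1a5, Cebpb and Slc3a2 at the top, with means over 6 libraries of 247, 142 and 124 FPKM, to Trib3 at 2.70 among the tested genes. Cebpb and Slc3a2 are neighbors in this order whose values overlapped. Dars, Vars and Aars followed at 88.4, 74.7 and 71.5, and their values overlapped with each other and with those of Slc3a2. Through Bob1KO 2, Slc3a2 also reached into the range of Slc1a5. Asns, at 2.80, stood below every synthetase, of which the lowest was Iars at 13.4.

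The half-width of the deposited 95% bounds, which cover the measurement of a single library, had a median of 5.63% of the FPKM over the 40 genes. The SD within a group, a different quantity, had a median of 11.6% of the mean and reached 73.9%. The highest library was under 1.5-fold above the lowest for 27 of the 40 genes and 2-fold or more above for 5. WT 3 was the highest library for 19 of the 40 and the lowest for 2, while WT 1 was the highest for 1. These counts were not made over all tested genes. WT 3 also had the highest total FPKM, 546933, against 491172 to 538396 in the other libraries. The median deviation of the 40 genes from their 6-library means was 0.15 in WT 3 on the log2 scale, against 0.05 over all tested genes. Genes were also counted by replicate number, without a test. Both libraries numbered 3 were above the other 4 for 7 genes, 17.5% against 11.0% of all genes, namely Cars, Kars, Nars, Tars, Wars, Shmt2 and Mthfd1, and below the other 4 for 0, against 4.87% of all genes. Both libraries numbered 2 were above the other 4 for 3 genes, Ddit3, Slc3a2 and Slc38a2, 7.5% against 3.75% of all genes, and below for 5, Dars, Farsb, Rars, Yars and Asns, 12.5% against 13.2%. Both libraries numbered 1 were above for 1 gene, Eif4ebp1, or 2.5% against 8.58%, and below for 4, Gars, Ddit3, Shmt1 and Slc3a2, or 10% against 6.06%.

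**Figure D4:**
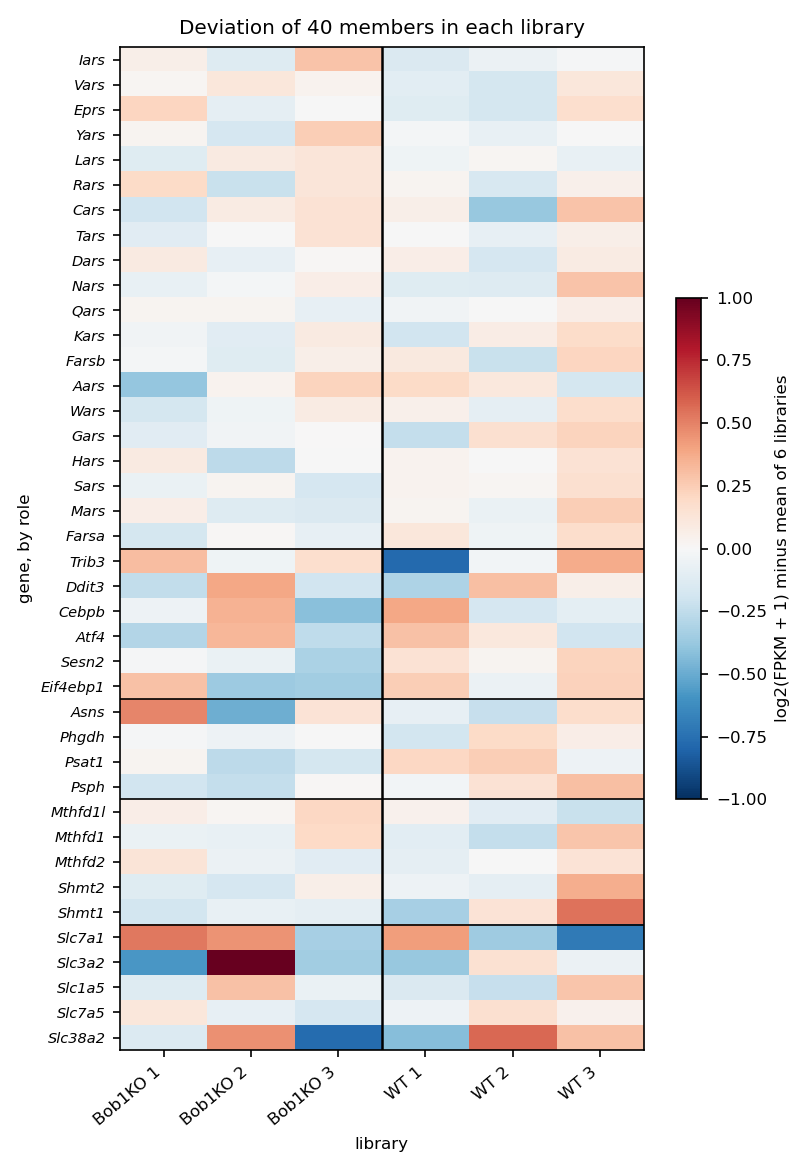
Deviation of log2(FPKM + 1) from the mean of 6 libraries for the 40 tested genes (rows, by role) in each library (columns, Bob1KO left of the line and WT right); red is above and blue below the mean, and the color scale ends at 1. WT 3 is above the mean for most synthetases and folate enzymes, and Slc3a2 exceeds the others in Bob1KO 2.

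Genes with and without the response-element core were also set side by side. The 7 tested genes with a core, among them Gars, Iars, Tars, Yars, Trib3 and Asns, had a median log2 fold change of 0.07 and a range of -0.10 to 0.29. The 23 tested genes with a promoter entry and no core had a median of -0.06. These medians are a description without a test.

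The wider pathway was read from further lists. Of 15 eIF2 kinases and other integrated stress response genes, including Eif2ak4, which encodes GCN2, 0 passed either threshold in limma, adjusted or unadjusted, and 8 estimates were positive and 7 negative (median 0.02). Among 6 synthetase scaffold and associated genes, 9 tested genes of 15 others linked to ATF4, 11 tested of 13 other folate and methionine cycle enzymes and 19 tested of 23 genes of amino acid sensing by mTORC1, 0 passed either threshold in each list, and the list medians were -0.12, -0.01, -0.05 and -0.08. All 3 Bob1KO libraries were above all 3 WT libraries for 2 of the 15 integrated stress response genes and below for 1. These counts were 1 and 0 of 9 ATF4-linked genes, 1 and 2 of 11 folate and methionine cycle enzymes. They were 0 and 1 of 19 mTORC1 genes and 0 and 0 of 6 scaffold genes. Over all genes the shares were 5.86% above and 4.85% below, and the difference was not tested. Of 17 mitochondrial synthetases, 1 passed an unadjusted P of 0.05, a share near the 5.35% of all genes, and 0 an adjusted P. The 1 gene was Lars2, the mitochondrial leucine enzyme, with an FPKM of 105, 139 and 67.1 in Bob1KO and 32.5, 79.0 and 28.1 in WT libraries (log2 fold change 1.23 ± 0.42, unadjusted P = 0.0221 and adjusted P = 0.913 in limma). The groups overlapped, and the authors' group FPKM were 51.4 for Bob1KO and 40.9 for WT, a smaller difference.

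Among 9 tested of 12 other amino acid transporters, 2 passed an unadjusted P of 0.05 on the higher side, where 3.17% of all genes did, and 0 passed an adjusted P. Slc43a2, a facilitator of large neutral amino acids, had 21.2, 23.1 and 21.7 in Bob1KO and 14.3, 17.4 and 16.8 in WT libraries, without overlap (0.43 ± 0.12, unadjusted P = 0.00965 and adjusted P = 0.811). The authors' group FPKM were 11.7 for Bob1KO and 9.74 for WT. Slc1a4, which exchanges alanine, serine and cysteine, had 13.05, 5.74 and 9.01 in Bob1KO and 7.25, 1.32 and 1.74 in WT libraries (1.39 ± 0.51, unadjusted P = 0.0287 and adjusted P = 0.913). Its groups overlapped through WT 1 and Bob1KO 2. The authors' group FPKM of Slc1a4 were 10.8 for Bob1KO and 3.996 for WT.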

How the data were processed

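RNA-seq of 3 Bob1KO and 3 WT Tfh libraries, grouped by the sample labels, was used; libraries were made from 0.7 ng of RNA with a SMART-Seq v4 kit. According to the submitters' processing notes, the authors trimmed reads with cutadapt 1.2.1 and aligned them to mm10 (GRCm38) with TopHat2 2.0.13. The deposited FPKM values and their 95% bounds come from Cufflinks 2.2.1, run on transcripts assembled in each library. The authors' comparison table gives group FPKM from a common assembly; its fold changes, test statistics, p-values and q-values were not used. The sources used here do not give the annotation release.

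Unnamed rows held 94.07% to 95.92% of the FPKM of a library, so rows were assigned by position, in Python 3.11.15, to the gene with which they shared at least 0.5 of the joint length. An unassigned row covering at least 0.95 of a gene without a row was added, and rows were summed; overlapping genes cannot be told apart. The test was the two-sided one of limma 3.58.1 (R 4.3.3) with a variance trend, run on log2(FPKM + 1) of genes averaging an FPKM of 1 or more; the model held the group alone, and P values were adjusted by Benjamini-Hochberg over all genes; fold changes of low genes are understated on this scale. The fit was also run on simulated independent libraries. The planted changes were larger than any estimate of a tested listed gene, so this run does not tell how small a difference could be found. Whole reads could not be recovered, since at most 48.13% of low rows were whole within 0.05, and no count test was run.

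Every listed gene is named. Library values are given for genes whose groups did not overlap, the 2 highest of each role and 8 preset genes; Iars, Farsa, Aars and further genes were added after their values were seen, and up to 2 genes of each other list were named by lowest P. The promoter sequence of 1 gene is not reported here. Genes and lists were chosen with earlier results of these data known. Deviations from the group means correlated for same-numbered libraries (0.1084, 0.1484 and 0.1006 over genes) and were negatively correlated for all other pairs. Deviations cancel out within a group for each gene, so positive same-numbered pairs by themselves push the other pairs to negative values. A fit with the replicate number as a block was added. Where the numbers come from is not given beyond the labels. P-values measure the spread between these pooled libraries only.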

Additional observations from a re-analysis of the deposited data

How the results depend on the processing

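In limma under 19 alternatives, 0 of the tested genes passed an adjusted P of 0.05. With the replicate block, 0 passed the unadjusted threshold as well, and 1 gene of all genes was called in place of 2; the block changed no call of a listed gene. Over all genes, the alternatives called between 1 and 7 at the adjusted threshold, the 7 without WT replicate 1. The count at an unadjusted P of 0.05 lay between 0 and 2 with 1 library left out: Psph and Shmt1 without WT replicate 1, Psat1 without WT replicate 3 and Eif4ebp1 without Bob1KO replicate 1. The call of Pou2af1 was lost without both libraries numbered 2, at -4.60 (adjusted P = 0.0544 in limma). The median log2 fold change of the listed genes was 0.02 without WT replicate 3, where the median over all genes was also 0.02. With quantile normalization it was -0.0025 for the listed genes and -0.0090 over all genes.

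The direction held for 19 of 40 genes in every fit, and 21 changed sign with 1 library left out. Without both libraries numbered 2 the log2 fold change was -0.19 for Cars, -0.022 for Dars, 0.033 for Kars, -0.0094 for Tars, 0.049 for Phgdh, -0.018 for Mthfd1, -0.24 for Slc3a2 and -0.16 for Slc1a5. With quantile normalization it was 0.010 for Nars, 0.0051 for Ddit3, 0.0057 for Phgdh and 0.0016 for Mthfd2. From the authors' group FPKM it was -0.0072 for Dars, -0.0079 for Eprs, 0.026 for Qars, -0.017 for Yars, 0.12 for Ddit3 and -0.061 for Slc3a2. With 1 library left out it ran from -0.22 to 0.088 for Aars, -0.16 to 0.17 for Cars, -0.068 to 0.058 for Dars, -0.0036 to 0.19 for Eprs, -0.19 to 0.033 for Farsb, -0.15 to 0.042 for Kars, -0.088 to 0.12 for Nars, -0.041 to 0.017 for Qars, -0.024 to 0.18 for Rars, -0.050 to 0.079 for Tars, -0.036 to 0.17 for Yars, -0.23 to 0.11 for Ddit3, -0.28 to 0.11 for Cebpb, -0.029 to 0.55 for Trib3, -0.13 to 0.36 for Asns, -0.15 to 0.036 for Phgdh, -0.064 to 0.19 for Mthfd1, -0.10 to 0.030 for Mthfd2, -0.37 to 0.53 for Slc3a2, -0.065 to 0.22 for Slc1a5 and -0.60 to 0.010 for Slc38a2. The cause was not tested. The number of libraries, 3 a group, limits all of these values.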

Other observations

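Proliferation markers were read beside the amino acid genes, since dividing cells use more of them. Of 11 tested markers, 10 had negative estimates, with a median log2 fold change of -0.37. In limma, 2 passed an unadjusted P of 0.05 on the lower side, where 2.17% of all genes did, and 0 passed an adjusted P. The positive estimate, 0.01, was that of Mki67. Its FPKM was 2.23, 1.40 and 2.14 in Bob1KO and 1.90, 2.13 and 1.60 in WT libraries. The summed FPKM of the markers was 161, 134 and 168 in Bob1KO and 187, 197 and 250 in WT libraries, without overlap. The lack of overlap came from Pcna, the most abundant marker, since without it the sum was 81.0, 53.7 and 81.1 in Bob1KO and 78.6, 98.4 and 137 in WT libraries, and WT 1 was below 2 Bob1KO libraries. Pcna, the DNA polymerase clamp, had 79.8, 80.4 and 86.5 in Bob1KO and 108, 98.4 and 113 in WT libraries (-0.37 ± 0.10, unadjusted P = 0.00881 and adjusted P = 0.785 in limma). Ccnb2, a mitotic cyclin, had 8.11, 3.53 and 6.81 in Bob1KO and 8.81, 11.4 and 17.0 in WT libraries (-0.92 ± 0.32, unadjusted P = 0.0244 and adjusted P = 0.913). The highest library of the sum, WT 3, was also the highest for 19 of the 40 amino acid genes, a count not made over all tested genes. Whether these move together was not tested.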
